A study of Mus musculus with 6 samples.

Results

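The transcriptome described here is that of mouse spermatogonial stem cells (SSCs) grown with vehicle, and it rests on 3 of the 6 libraries of the series. They were chosen by label, as every library given 0.2% ethanol, and their values come from the ethanol columns of a table of counts per gene symbol and of a table of counts per repeat family. The cells came from testes of DBA2 mice at postnatal days 5 to 8, were kept in culture, and received ethanol for 2 weeks before TRIzol extraction and a stranded mRNA library. The other 3 libraries, from cells given 2 uM EPZ5676, are not compared here. The design text calls the libraries biological triplicates, but no label names separate animals or cultures, so the spread between them may be technical.

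Spermatogonial stem cells are the cells that renew the germline of the testis. In culture their renewal depends on GDNF, which signals through the receptor pair GFRA1 and RET, and on FGF2, and ETV5 is a transcription factor of that pathway. When spermatogonia begin to differentiate under retinoic acid they use the receptor KIT and the protein STRA8, and then enter meiosis. Such cultures are usually grown on a layer of fibroblast feeder cells, although no feeder is named in the labels.

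Of 24495 gene symbols, 13010 reached at least 1 CPM in each of the 3 libraries (CPM is the count scaled to a library total of 1000000 gene counts), which is 53.1% of the table, and are called detected below. No count at all fell on 4638 symbols, or 18.9%, and the remaining 6847 had counts below the detection level. Gene counts summed to 19554140, 17784332 and 21046473 in ethanol replicates 1, 2 and 3, so that 3 counts over the 3 libraries together, the upper limit that a count of 0 allows, equal 0.0514 CPM. This limit covers counting error only. Replicates 1 and 3 lay closest together: between them 1 gene of 7663 with a mean of at least 20 CPM differed over 2-fold, against 64 between replicates 1 and 2 and 69 between replicates 2 and 3. Of the detected genes 28.9% were highest in replicate 1, 40.9% in replicate 2 and 30.2% in replicate 3. Values below are therefore given for each library, in the order of replicates 1, 2 and 3, followed by the mean ± SD (n = 3). Counts of detected members in the lists and families below are to be set against the 53.1% of all symbols detected.

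All 7 genes chosen as markers were detected. Of these Kit and Stra8 belong to differentiating spermatogonia and Ddx4 to the germline at large, so not all 7 mark stem cells. Levels of different genes are compared on a scale of CPM per kilobase of exon, in which a long transcript gains nothing from its length. Ddx4, an RNA helicase of the germline, stood highest at 221 ± 6.88 CPM per kilobase. Next came Stra8 at 114 ± 38.7 and Zbtb16, which encodes the transcription factor PLZF of undifferentiated spermatogonia, at 92.2 ± 20.9, and the ranges of these neighbours overlapped. Kit (32.7 ± 4.70) and Ret (25.1 ± 7.43) also overlapped, as did Ret and Etv5 (21.96 ± 1.10). Gfra1, the GDNF co-receptor, was the lowest of the 7 at 15.02 ± 0.749 CPM per kilobase, and its libraries did not overlap those of Etv5 or Ret. All 7 lay above the median of all detected genes, 9.73 CPM per kilobase.

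**Figure D1:**
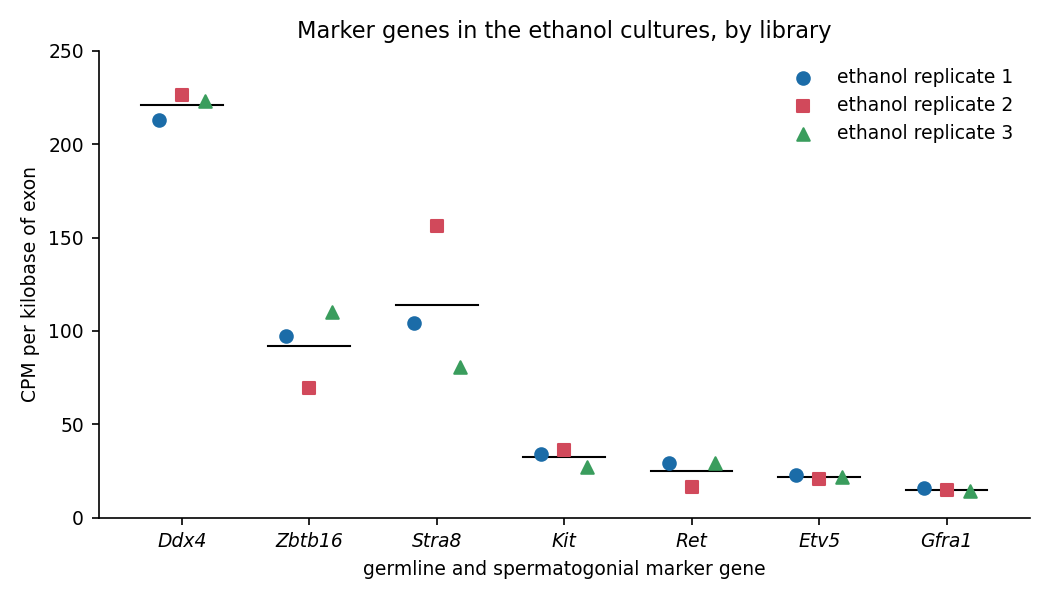
Level of the 7 marker genes, in CPM per kilobase of exon on a linear axis, with 1 symbol for each ethanol library and a line at the mean of the 3. Ddx4 stands above the rest, Zbtb16 and Ret are lowest in replicate 2, and Stra8 is highest there.

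The marker values by library showed that the GDNF receptor pair did not vary together. Gfra1 measured 73.4, 69.1 and 66.6 CPM, with a mean of 69.7 ± 3.47, and Ret, the signalling kinase of the pair, measured 199, 112 and 198 CPM, with a mean of 169.8 ± 50.2. Gfra1 was near level in the 3 libraries, whereas Ret was lowest in replicate 2. The related co-receptors Gfra3 (17.5 ± 3.16 CPM) and Gfra4 (5.10 ± 1.497 CPM) were detected, and Gfra2 (0.441 CPM) was below detection. Among receptors for FGF2, Fgfr1 measured 142, 148 and 146 CPM, or 27.9 ± 0.545 per kilobase, and was near level in the libraries. Fgfr3 reached 4.37 ± 0.760 CPM per kilobase, Fgfr2 9.39 CPM and Fgfr4 2.95 CPM. In all, 8 of the 9 listed receptors for GDNF and FGF2 were detected, against 53.1% of all symbols. Among 16 receptors for other growth factors, 15 were detected, led in CPM by the insulin-like growth factor receptor Igf1r (336 ± 12.8) and the BMP receptor Bmpr1a (225 ± 3.72).

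The ligands GDNF and FGF2 themselves had few counts. Gdnf measured 1.23, 4.89 and 1.43 CPM and was highest in replicate 2, and Fgf2 had a mean of 0.405 CPM, below detection. Of 15 ligands of the germ cell niche 9 were detected, or 60.0%, against 53.1% of all symbols. The highest was Igf2 at 59.1, 81.03 and 43.9 CPM, a gene that shares 61.2% of its 50-base words with other annotated transcripts, so its count depends on how such reads were assigned. Csf1, a growth factor reported to favour SSC renewal, measured 16.9, 48.9 and 15.2 CPM and stood highest in replicate 2. Cxcl12, the ligand that draws cells carrying CXCR4, went the other way, with 17.95, 8.32 and 19.5 CPM. Hgf (0.443 CPM) and Wnt6 (0.0187 CPM) were below detection.

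Transcription factors of undifferentiated spermatogonia were detected for 18 of 20 listed genes, against 53.1% of all symbols. Their summed mean was 1857 ± 178 CPM. Zbtb16 measured 514, 366 and 582 CPM and Foxo1, a factor required for SSC maintenance, 427, 386 and 401 CPM. Taf4b, a germline subunit of the general transcription machinery, measured 237, 223 and 251 CPM and Sall4, a zinc finger factor, 179, 127 and 172 CPM. Zbtb16 and Sall4 were lowest in replicate 2, while Foxo1 and Taf4b varied little. The GDNF-responsive genes Etv5 (93.3, 84.6 and 87.5 CPM), Bcl6b (75.1, 114 and 76.97 CPM) and Egr3 (99.3, 83.3 and 86.3 CPM) had similar levels per kilobase, at 21.96 ± 1.10, 26.4 ± 6.60 and 21.8 ± 2.07, and of these only Bcl6b was highest in replicate 2.

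Other members of the same list, picked out after their values were seen, had lower CPM. Id4 measured 22.3, 17.3 and 18.4 CPM and Pax7, which marks a rare spermatogonial population, 2.71, 1.57 and 2.66 CPM. Neurog3, of early progenitors, measured 10.7, 1.57 and 5.70 CPM from 210, 28 and 120 counts. Neurog3 was the most uneven of these, lowest in replicate 2, so its mean of 6.01 ± 4.59 describes the libraries poorly. T, which encodes brachyury, rested on 4, 4 and 3 counts and Pdx1 had a mean of 0.0675 CPM, both below detection.

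The 4 RNA-binding genes of stem and progenitor cells were all detected. Lin28a, which blocks maturation of let-7 microRNAs, measured 337, 276 and 368 CPM (93.3 ± 13.3 per kilobase), and its paralogue Lin28b 67.1, 69.3 and 65.6 CPM (12.5 ± 0.345 per kilobase). Nanos3, a translational repressor, measured 56.8, 28.6 and 56.5 CPM and Nanos2, needed to keep SSCs undifferentiated, 14.7, 3.21 and 13.3 CPM. Lin28b was level across the libraries. Lin28a, Nanos3 and Nanos2 were lowest in replicate 2, and for Nanos2 that library held 57 counts against 288 and 280.

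Of 16 surface markers 14 were detected, against 53.1% of all symbols, and they included genes among the most abundant of the culture. Sdc4, a heparan sulphate proteoglycan, measured 1318, 785 and 1296 CPM and ranked 30 of all genes per kilobase. Uchl1, a deubiquitinase used to stain spermatogonia and listed with the surface markers, measured 1012, 865 and 992 CPM and ranked 12 per kilobase, at 812 ± 67.8. Both were lowest in replicate 2, Sdc4 by more. The laminin receptor subunits Itgb1 (388, 529 and 389 CPM) and Itga6 (252, 243 and 232 CPM) are used to enrich SSCs, and of these Itgb1 was highest in replicate 2 while Itga6 was near level. Epcam measured 272, 342 and 215 CPM and Mcam 442, 348 and 437 CPM, and replicate 2 was the highest library for Epcam and the lowest for Mcam. Thy1, another sorting marker, reached only 7.82, 12.1 and 8.55 CPM, and Tspan8 (0.372 CPM) and Shisa6 (0.336 CPM) were below detection.

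Genes listed for differentiating spermatogonia were detected beside those listed for stem cells. All 15 listed genes were detected, against 53.1% of all symbols. Their summed mean was 2600 ± 157 CPM and their median 172 CPM, where the median of all detected genes was 30.4 CPM. Without Dmrt1, the highest member, the sum was 2067 ± 153 CPM. Kit measured 181, 191 and 144 CPM and was lowest in replicate 3, and Stra8 measured 188, 282 and 146 CPM and was highest in replicate 2 and lowest in replicate 3. Dmrt1, which holds spermatogonia back from meiosis, was near level at 527, 541 and 533 CPM. Sohlh1 (246, 212 and 252 CPM) and Sohlh2 (216, 219.7 and 207 CPM), partner transcription factors of differentiation, were also near level. Ccnd2, a cyclin of spermatogonia, measured 384, 503 and 315 CPM and was highest in replicate 2. Lowest in CPM were Dmrtb1 (7.72 ± 3.72), Ctcfl (5.94 ± 0.723) and Prdm9 (4.596 ± 1.04). Sycp3 and Prdm9 of this list are also on the meiotic list, Dnmt3b on that of DNA methylation, and Kit on that of surface markers. Bulk counts cannot tell whether stem and differentiation genes lay in the same cells, nor fewer cells of a type from less RNA per cell.

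Of 31 listed genes of meiotic prophase 29 were matched to the table (Rnf212 and Meiosin were not). All 29 were detected, against 53.1% of all symbols. Stag3, a meiotic cohesin subunit, measured 803, 931 and 772 CPM, or 198 ± 19.9 per kilobase, and Smc1b, another, 312, 299 and 291 CPM. Tex15, needed for recombination and transposon silencing, measured 702, 769.6 and 757 CPM. Sycp1, the transverse filament of the synaptonemal complex, measured 382, 436 and 363 CPM (115 ± 11.02 per kilobase), and Sycp3, of its axial element, 121, 135 and 116 CPM (98.2 ± 7.51 per kilobase). The libraries of Sycp3 lay within the range of Zbtb16 per kilobase. The named members were near level in the libraries, with Stag3, Sycp1 and Sycp3 highest in replicate 2. The list was uneven, with a median of 32.7 CPM: Spata22 (5.44 ± 0.262), Prdm9 (4.596 ± 1.04) and Ccna1 (1.24 ± 0.144), which is used by late spermatocytes, were lowest in CPM. On 18 of the 29 the highest library was replicate 2, against 40.9% of all detected genes.

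Genes of spermatids, the haploid cells that follow meiosis, were detected at a share below but near that of the table: 12 of 26 listed, or 46.2%, against 53.1% of all symbols. Their levels were low, with a median of 0.340 CPM over the list and 2.11 CPM over all symbols, and 2 had no count. Odf2 was highest at 63.4, 45.8 and 58.5 CPM; it is a sperm tail gene that dividing cells also use at the centrosome. Crem (9.79 ± 1.66 CPM) and Ldhc (9.57 ± 1.11 CPM) followed. The protamine genes that pack sperm DNA were near 0, with 0, 3 and 3 counts for Prm1, 0, 0 and 1 for Prm2 and none for Prm3, and Smcp, of the sperm mitochondrial sheath, had no count. Tnp1, a transition protein, reached 2.25, 1.07 and 2.19 CPM.

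**Figure D2:**
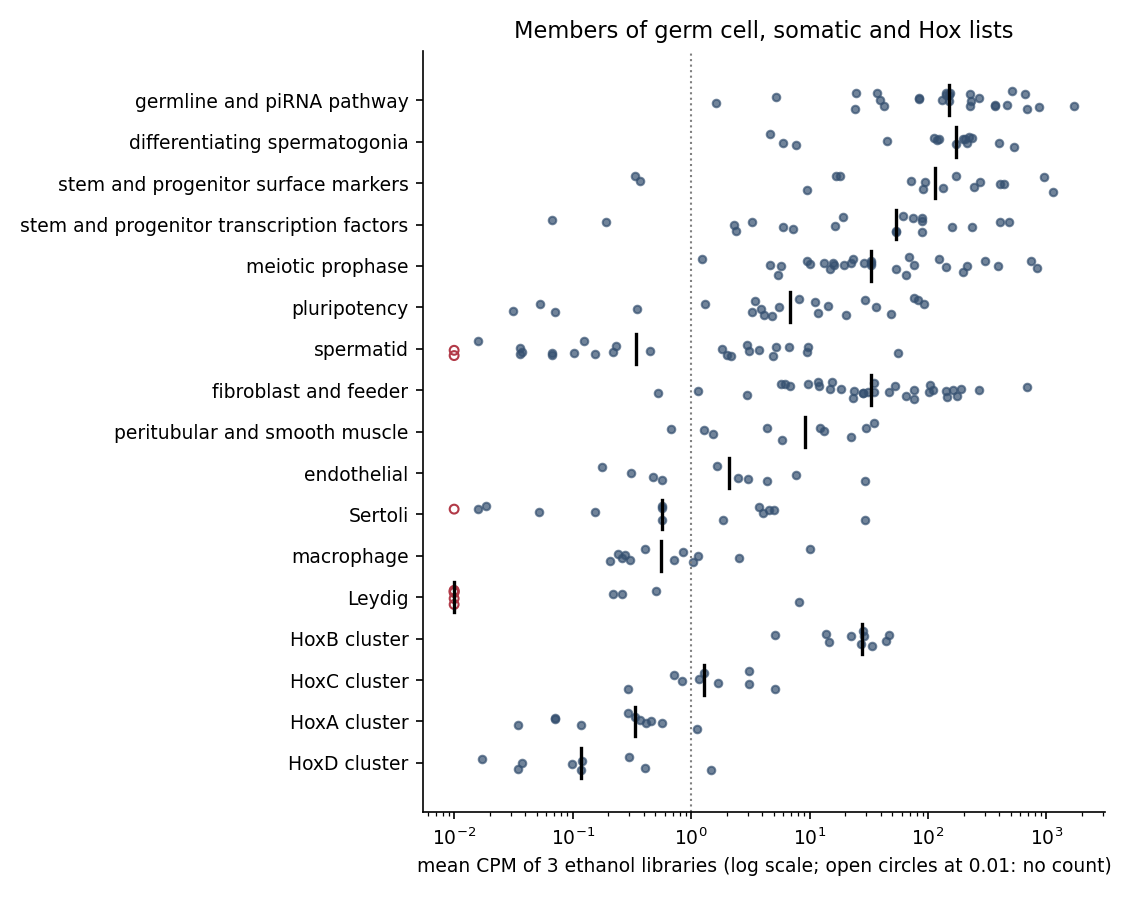
Mean CPM (log axis, not scaled for length) of each member of 17 gene lists in the 3 ethanol libraries, with a black line at the list's median, a dotted line at 1 CPM, and open circles at 0.01 for members with no count. Germline, differentiating and meiotic genes sit mostly above 10 CPM, spermatid and Leydig genes mostly below 1, and the HoxB genes above those of the other Hox clusters.

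The lists of meiotic and spermatid genes differed in the median CG content before their start sites, though single genes of both lists departed from this. As picked examples 4 promoters are given. Each is the 250 bases before the annotated start, 5′ to 3′, from the RefSeq promoter table on GRCm38.p6, which matched 18197 symbols (74.3%), while the counts were made on mm9, so no count was placed by these positions. Capitals mark CG dinucleotides. Stag3 (chr5:138280259-138280508, plus strand, 26 CG) and Sycp3 (chr10:88459337-88459586, plus strand, 12 CG) are meiotic, and Prm1 (chr16:10796824-10797073, minus strand, 0 CG) and Tnp1 (chr1:73015900-73016149, minus strand, 2 CG) are spermatid genes.
Stag3: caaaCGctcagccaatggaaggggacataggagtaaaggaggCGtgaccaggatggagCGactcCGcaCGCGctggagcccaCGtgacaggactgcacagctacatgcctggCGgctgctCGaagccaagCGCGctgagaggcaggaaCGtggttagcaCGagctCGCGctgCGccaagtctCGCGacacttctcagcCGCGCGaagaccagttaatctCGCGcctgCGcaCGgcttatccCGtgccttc
Sycp3: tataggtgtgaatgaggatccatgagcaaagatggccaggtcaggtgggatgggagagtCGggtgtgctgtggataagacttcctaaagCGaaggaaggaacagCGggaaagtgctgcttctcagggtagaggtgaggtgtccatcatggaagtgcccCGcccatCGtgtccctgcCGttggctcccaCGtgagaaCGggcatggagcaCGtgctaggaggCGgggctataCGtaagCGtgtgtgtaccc
Prm1: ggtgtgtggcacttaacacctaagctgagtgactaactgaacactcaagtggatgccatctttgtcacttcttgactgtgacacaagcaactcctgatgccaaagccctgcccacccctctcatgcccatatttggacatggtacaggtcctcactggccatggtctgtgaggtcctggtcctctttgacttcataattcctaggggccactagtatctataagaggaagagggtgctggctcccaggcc
Tnp1: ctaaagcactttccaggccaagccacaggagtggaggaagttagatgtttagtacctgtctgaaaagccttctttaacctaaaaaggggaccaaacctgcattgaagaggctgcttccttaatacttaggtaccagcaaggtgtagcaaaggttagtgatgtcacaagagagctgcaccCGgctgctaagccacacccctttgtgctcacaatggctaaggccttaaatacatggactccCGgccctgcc

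Over the lists, 24 of the 29 meiotic genes in the count table had a promoter in the table, with a median of 14.5 CG, and 19 of them held at least 10. The 2 meiotic genes with fewer than 5 were Rad21l (1 CG) and Msh4 (4 CG). Of 26 spermatid genes 22 had one, with a median of 2 CG, and 17 held fewer than 5. The 3 spermatid genes with at least 10 were Catsper2, Odf2 and Spaca1. Over all protein-coding symbols the median was 16 CG for 10169 detected genes (80.7% of them had a promoter) and 1 CG for 2444 symbols without a count (83.7%). It was 16 CG at 10 to 100 CPM and 19.5 at 100 CPM or more. Protein-coding symbols counted but not detected had a median of 4 CG, and those detected under 10 CPM 11.1, though only 76.6% and 78.3% had a promoter. The median of the meiotic list thus lay near that of detected genes. The median of the spermatid list, in which 2 of 26 genes had no count, lay between those of symbols without a count and symbols counted but not detected.

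**Figure D3:**
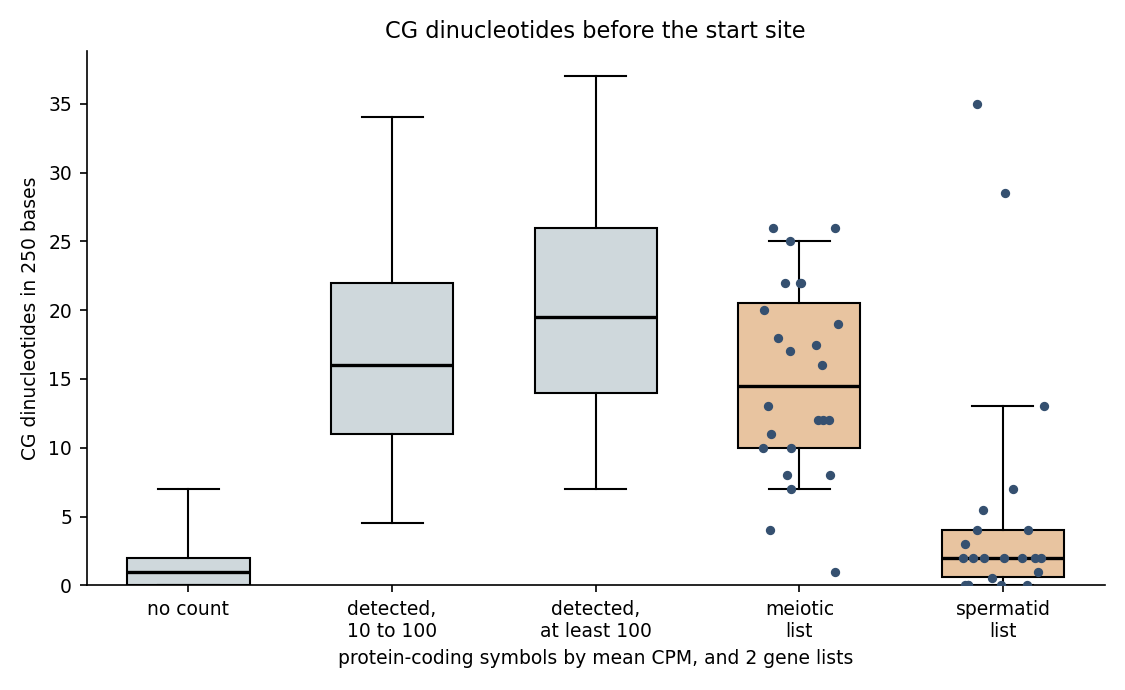
CG dinucleotides in the 250 bases before the start site of protein-coding symbols without a count, detected at a mean of 10 to 100 CPM, or detected at 100 CPM or more (grey), and of the meiotic and spermatid lists (tan, with 1 point per gene). Boxes span the quartiles with the median, and whiskers the 5th to 95th percentile; the medians are 1, 16 and 19.5 for the grey boxes, 14.5 for the meiotic list and 2 for the spermatid list.

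Short motifs were then searched in these windows on both strands. CACGTG, an E-box, lay in 7 of the 24 meiotic promoters, those of Sycp1, Sycp3, Syce2, Tex12, Stag3, Hormad1 and Piwil1, or 29.2%, and in 0 of the 22 spermatid promoters. It also lay in 4 of the 12 promoters of differentiating genes, or 33.3%, of which Sycp3 is on both lists. It lay in 7.79% of all 18180 promoters and in 11.1% of the 9627 with at least 10 CG, a base that matters because the motif itself holds a CG.

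The other motif that holds a CG was an E2F-type sequence, searched the same way. GCGGGAA lay in 8 of the 24 meiotic promoters, those of Sycp3, Syce2, Tex12, Smc1b, Hormad1, Meioc, Prdm9 and Msh5, or 33.3%, in 1 of the 22 spermatid promoters, that of Spaca1, and in 2 of the 12 differentiating promoters. It lay in 5.67% of all promoters and in 9.42% of those with at least 10 CG.

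A last motif searched, the TATA-box sequence TATAAA, lay in 1 of the 24 meiotic, 1 of the 22 spermatid and 1 of the 12 differentiating promoters. It lay in 13.3% of all promoters and in 6.36% of those with at least 10 CG. A match describes letters in a window and shows no binding.

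The list of germline genes had the largest summed CPM of the 27 lists. All 27 listed genes of germline identity and of the piRNA pathway, which guards germ cells against transposons through small RNAs, were detected. The share of all symbols detected was 53.1%. Together the 27 genes held 0.778% of gene counts (7783 ± 227 CPM). Dazl, a germ cell RNA-binding protein, measured 1736, 1681 and 1686 CPM and ranked 10 of all genes by CPM and 23 per kilobase. Its promoter (chr17:50293621-50293870, minus strand) held 20 CG and that of Ddx4 (chr13:112652311-112652560, minus strand), given below as the highest of the 7 markers per kilobase, held 31.
Ddx4: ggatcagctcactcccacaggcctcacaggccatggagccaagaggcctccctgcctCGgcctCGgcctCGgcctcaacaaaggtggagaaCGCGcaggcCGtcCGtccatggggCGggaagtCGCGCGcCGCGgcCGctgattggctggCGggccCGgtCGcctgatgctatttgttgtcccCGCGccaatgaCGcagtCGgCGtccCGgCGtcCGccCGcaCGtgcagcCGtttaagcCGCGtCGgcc

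The piRNA genes were led by Piwil2, a PIWI protein, at 883, 796 and 912 CPM and Mov10l1, the helicase of piRNA biogenesis, at 652, 708 and 685 CPM. Ddx4 itself measured 642, 682 and 672 CPM and was near level. Mael measured 474, 396 and 515 CPM and was lowest in replicate 2, whereas Tex19.1, a regulator of retrotransposons, measured 478, 630.4 and 422 CPM and was highest there. In CPM the list ended with Pld6 (24.4 ± 3.77), Mybl1 (5.18 ± 0.234), a factor of pachytene cells, and Tdrd6 (1.61 ± 0.288), a component of spermatid granules. In 20 of the 27 genes replicate 2 was the lowest library, against 45.6% of all detected genes.

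Genes of pluripotency were partly present. Of 22 listed, 17 were detected, against 53.1% of all symbols, with a summed mean of 459 ± 47.4 CPM. Pou5f1, which encodes OCT4 and is shared by germline and pluripotent cells, measured 52.5, 39.98 and 53.4 CPM, and Klf4 88.2, 62.2 and 78.8 CPM. Mycn, with 106, 90.8 and 83.4 CPM, and Tfcp2l1, with a mean of 81.9 CPM, were the other leading members. Nanog rested on 7, 8 and 5 counts, and Prdm14 (0.0704 CPM), Fgf4 (0.0528 CPM) and Tdgf1 (0.0317 CPM) were below detection, while Sox2 reached 3.25 ± 1.23 CPM.

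Of the somatic lists, that of fibroblast and feeder genes had the largest summed CPM, and it was also the longest. Which cells these transcripts came from was not tested. Of 34 listed genes of fibroblasts and feeder cells 32 were detected, against 53.1% of all symbols. The list summed to 2002, 3883 and 2245 CPM, or 0.271% of counts on average. Fn1, fibronectin, measured 561, 891 and 605 CPM, Col1a1, a collagen chain, 217, 366 and 220.0 CPM, and Sparc, a matrix protein, 121, 279 and 128 CPM. Thbs1, thrombospondin, was the most uneven of those named, with 97.6, 338 and 129 CPM. Replicate 2 was the highest library in 30 of the 32, against 40.9% of all detected genes, and the median ratio of replicate 2 to the mean of the other libraries was 1.70, where that of all detected genes was 0.986. Col1a2 (163 ± 77.9 CPM) and Col3a1 (144 ± 41.8 CPM) were the other leading members, and Loxl1 (2.97), Fap (1.14) and Twist2 (0.526) the lowest in CPM.

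Lists for other cells of the testis were shorter and had smaller sums. Of 10 genes of peritubular and smooth muscle cells 8 were detected, summing to 95.5, 196 and 88.8 CPM. Acta2, smooth muscle actin, measured 22.7, 62.1 and 19.7 CPM and Tagln 19.9, 53.02 and 17.5 CPM, and both were highest in replicate 2. Sertoli cell genes summed to 50.5 ± 7.45 CPM, of which Wt1 gave 29.4 ± 9.02. Their defining genes Amh and Fshr rested on 1, 1 and 1 and 0, 0 and 1 counts, and Cst9 had none. Leydig cell genes summed to 9.06 ± 1.36 CPM. Nearly all of that was Star (8.08 ± 1.42), and Insl3, Lhcgr, Hsd3b1, Hsd3b6 and Hsd17b3 had no count. Of 12 macrophage genes 2 were detected, or 4 without replicate 1 (sum 18.1 ± 2.58 CPM), led by the lysosomal gene Cd68 (10.2 ± 1.22), with Ptprc, the pan-leukocyte gene, at 0.863 CPM. Endothelial genes summed to 50.4 ± 4.23 CPM and 6 of 10 were detected, led by Flt1 (29.6), with Cdh5 at 3.003 and Cldn5 at 0.177 CPM.

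Replicate 2 also differed from the other libraries in other lists. Detected stem cell transcription factors had a median ratio of 0.872 to the other libraries and were lowest in replicate 2 in 13 of 18, against 45.6% of all detected genes. Niche ligands had a ratio of 1.57, with 8 of 9 highest there, and imprinted genes 1.45, with 16 of 20. Differentiating genes had 1.12, with 10 of 15 highest in replicate 2, against 40.9% of all detected genes. The fibroblast sum in replicate 2 was 1.83 times the mean sum of the other libraries. Its part in the lower values of Ret, Zbtb16, Sdc4, Nanos2 and Neurog3 in replicate 2 was not tested. Among 86 genes (1.12% of 7663) with the highest library over 2 times the lowest, replicate 2 was the highest in 53 and the lowest in 32.

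**Figure D4:**
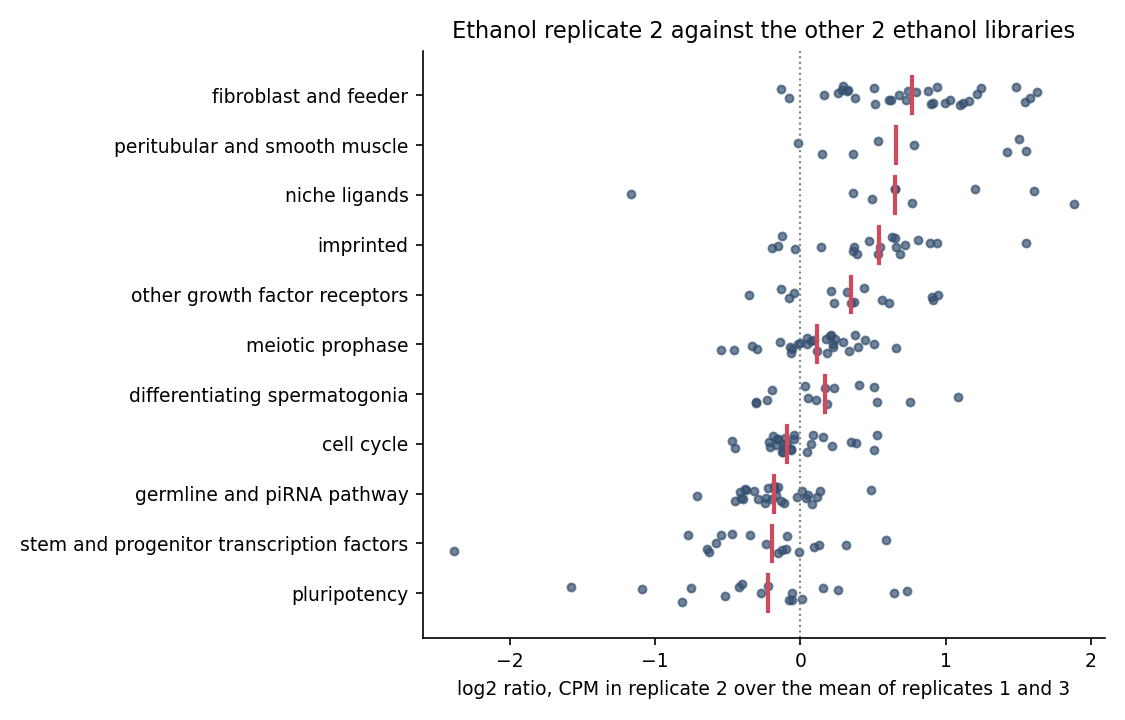
Each point is 1 detected gene of the named list, placed by the log2 ratio of its CPM in ethanol replicate 2 to the mean of ethanol replicates 1 and 3, and red lines are list medians. Fibroblast, smooth muscle and niche ligand genes lie mostly right of 0, and germline and stem cell factors mostly left.

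The 12 most uneven of these genes showed both directions. Inhba, an activin subunit, measured 31.9, 122 and 39.96 CPM, Lox, which crosslinks collagen, 35.4, 119 and 41.1 CPM, and Serpinb2, a protease inhibitor, 12.6, 53.2 and 16.6 CPM. These were highest in replicate 2, as were the neurofilament gene Nefm (13.9, 48.5 and 9.98 CPM), Timp3 (21.7, 68.5 and 30.1 CPM), Thbs1, Csf1 and Acta2. Lowest in replicate 2 were Arhgef15 (38.7, 14.8 and 48.4 CPM), Ly6g6e (38.5, 13.8 and 45.00 CPM), the heat shock gene Hspa1a (28.5, 9.45 and 33.2 CPM) and Tmem63c (29.4, 6.07 and 28.7 CPM).

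The most abundant transcripts of the culture came from genes of several roles. In CPM, Eef1a1, the elongation factor that brings tRNA to the ribosome, led at 4610.2, 4971 and 4551, with a mean of 4711 ± 227. It shares 39.4% of its words with other transcripts. Eef2, which moves the ribosome along, followed at 3689 ± 295 and Hsp90ab1, a cytosolic chaperone, at 3329 ± 269 CPM. Rpl4 (2873 ± 244 CPM), Actb (2096 ± 85.1) and Pabpc1, the poly(A)-binding protein (1214 ± 9.14), were also among the first 20. So were Dazl, the splicing protein Srrm2 (1510.3 ± 161), the RNA helicase Ddx5 (1505 ± 19.4), the ATP synthase subunit Atp5b (1491 ± 31.6), the lipid synthesis enzyme Acly (1355 ± 91.3) and the spectrin Sptan1 (1246 ± 28.7). The first 20 held 4.11 ± 0.0312% of counts, the first 100 held 11.1 ± 0.0321%, and 39 genes had a mean of at least 1000 CPM.

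Length raised several of these ranks. Mdn1, a ribosome assembly ATPase with 17980 bases of exon, ranked 4 by CPM (3100.2 ± 179.7) and 172 per kilobase. Huwe1, a ubiquitin ligase of 14579 bases, ranked 6 and 195, the dynein motor Dync1h1 8 and 328, and Ubr4 15 and 680. Only 7 genes were in the first 20 on both scales. Per kilobase Eef1a1 (2626 ± 127) and Rpl4 (1868 ± 159) ranked 1 and 2, Hsp90ab1 (1321 ± 107) ranked 4 and Eef2 (1194 ± 95.6) ranked 6.

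Cell division genes were all detected, 27 of 27, with a sum of 6366 ± 104 CPM. Top2a, the topoisomerase of dividing cells, had a mean of 762 ± 20.98 CPM, Mki67, the proliferation marker, 576 ± 82.9, and Mcm7, of the replication helicase, 446 ± 27.8. Inhibitors of cyclin-dependent kinases summed to 147 ± 25.5 CPM, with 6 of 7 detected, and of these Cdkn1a measured 50.5, 93.8 and 40.5 CPM and was highest in replicate 2.

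Genes that write, keep and remove DNA methylation were mostly detected. Dnmt1, the maintenance methyltransferase, measured 760.0, 699 and 746 CPM (117 ± 5.05 per kilobase), and Uhrf1, which recruits it, 432, 385 and 395 CPM. The de novo enzymes Dnmt3b (207, 170.5 and 215 CPM, 45.6 ± 5.47 per kilobase) and Dnmt3a (155 ± 8.59 CPM, 15.7 ± 0.866 per kilobase) were lower, and their germline cofactor Dnmt3l reached 4.36 ± 0.590 CPM. Of the TET enzymes, which oxidise methylcytosine, Tet3 measured 201, 248 and 204 CPM, with Tet1 at 2.51 and Tet2 at 4.15 CPM. Tdg rested on 1, 0 and 0 counts. In all 13 of the 14 listed genes were detected. Among 23 imprinted genes 20 were detected, against 53.1% of all symbols. They were led by Igf2r (390.4 ± 64.01 CPM), whose maternal allele is the active one in most tissues, and the noncoding H19 (134, 157 and 111 CPM). Snrpn, which shares 21.7% of its words with other transcripts, had no count, and Snurf, which shares 100%, had none either. Whether Tdg and Snrpn are low in the cells was not tested.

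Of the 4 Hox clusters, which pattern the body axis, only HoxB was broadly present. All 10 HoxB genes were detected, summing to 265 ± 10.98 CPM. Hoxb9 measured 49.5, 47.2 and 44.9 CPM and Hoxb8 47.2, 41.1 and 43.5 CPM, and the lowest member, Hoxb1, 5.08 ± 0.168 CPM. HoxC genes summed to 17.2 ± 4.48 CPM with 4 of 9 detected, led by Hoxc10 at 5.32, 3.71 and 6.18 CPM. HoxA genes summed to 3.85 ± 0.321 CPM with 0 of 11 detected, or 1 without replicate 3, and HoxD genes to 2.60 ± 0.506 CPM with only Hoxd8 detected (1.33, 2.02 and 1.05 CPM). Per kilobase, the lowest HoxB gene (2.44 ± 0.0806) and the highest HoxC gene (2.66 ± 0.656) had similar means.

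Several large tandem families were mostly without a count. Of 1107 olfactory receptor symbols 949 had no count, or 85.7%, where 18.9% of all symbols had none, and the whole family summed to 20.3 ± 3.14 CPM. They made up 20.5% of the symbols without a count, while predicted Gm genes (566 symbols) made up 12.2% and Riken clones (511 symbols) 11.02%. Olfr1349 (2.62 ± 0.545 CPM) and Olfr1259 (2.17 ± 0.797 CPM) were its 2 detected members. Of 329 vomeronasal receptors, which sense pheromones, 277 had no count and none was detected. The keratin-associated proteins of hair (45 of 54 without a count), alpha-defensins of the gut (26 of 27) and bitter taste receptors (27 of 35) were alike mostly silent. So were major urinary proteins (19 of 21) and prolactin-family symbols (21 of 29), which include the receptor gene Prlr. Members of these families resemble each other in sequence. Over all symbols, these families included, those with over 90% of their 50-base words shared were without a count in 77.2% of cases, against 14.4% with none shared. Whether shared words bear on the counts of these families was not tested.

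Other clusters were mixed. Of the 30 Rhox homeobox genes of the X chromosome, a reproductive cluster, 8 were detected, led by Rhox13 (20.6 ± 1.29 CPM), Rhox10 (16.6 ± 0.867 CPM) and Rhox1 (8.85 ± 2.15 CPM). Among protocadherins, 10 of 12 alpha and 6 of 22 beta symbols had no count, and no beta member was detected. All 22 gamma symbols had a count and 3 were detected, with Pcdhgc3 highest at 6.70 ± 2.28 CPM. Keratins were detected for 6 of 51, against 53.1% of all symbols, and were led by Krt10 (7.35 ± 2.44 CPM). Replication-dependent histones, whose transcripts lack a poly(A) tail, were detected for 5 of 69, summing to 26.6, 55.2 and 27.8 CPM.

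Repeat counts, from a separate table of 50 named families, were dominated by LINE-1. How reads that align at several copies were counted is not given, so the shares below depend on that unknown choice. L1, an autonomous retrotransposon, took 69.1, 68.2 and 70.4% of the repeat counts. ERVK, the family of endogenous retroviruses that includes IAP elements, took 12.03, 13.9 and 13.2%. B2, a short element that depends on L1 enzymes, took 9.58, 9.80 and 7.68%. As shares of repeat counts, L1 and ERVK varied little between libraries, and B2 was lowest in replicate 3. Set against the gene counts of the same library, L1 came to 172, 261 and 188%, ERVK to 30.02, 53.1 and 35.2% and B2 to 23.9, 37.4 and 20.5%, each highest in replicate 2. ERVL had 2.91 ± 0.0341%, simple repeats 1.84 ± 0.270%, MaLR 1.30 ± 0.149% and Alu, the label that holds mouse B1 elements, 0.976 ± 0.187%. Low-complexity sequence, ERV1 and B4 completed the first 10, which held 99.3 ± 0.156% of repeat counts, and 28 families were each under 0.01%. By class, LINEs held 69.3 ± 1.12%, LTR elements 17.6 ± 0.843%, SINEs 10.4 ± 1.20% and DNA transposons 0.124 ± 0.0201%.

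Of the structural RNA families some were uneven, and the first 2 given here were chosen for it. rRNA took 0.0635, 0.133 and 0.274%, a 4.32-fold range, and snRNA 0.0216, 0.0747 and 0.0820%, a 3.80-fold range, whereas tRNA had a 1.32-fold and scRNA a 1.38-fold range, near those of Alu (1.45) and simple repeats (1.33). As shares of repeat counts, rRNA and snRNA were lowest in replicate 1 and highest in replicate 3, as was srpRNA (0.0108, 0.0137 and 0.0258%, a 2.38-fold range). In unscaled counts snRNA was highest in replicate 2 (10534, 50721 and 46064), so its order depends on the scale. The family labelled RNA, with a 2.29-fold range, was highest in replicate 2 (0.00677, 0.0155 and 0.0119%), as most fibroblast genes were. In the gene table the ribosomal precursor Rn45s measured 319, 909 and 553 CPM and was highest in replicate 2. Repeat counts were 2.50, 3.83 and 2.68 times the gene counts of the same library, so the values above are shares of repeat counts and not of the transcriptome. Young L1 transcripts cannot be told apart from old copies inside other transcripts.

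**Figure D5:**
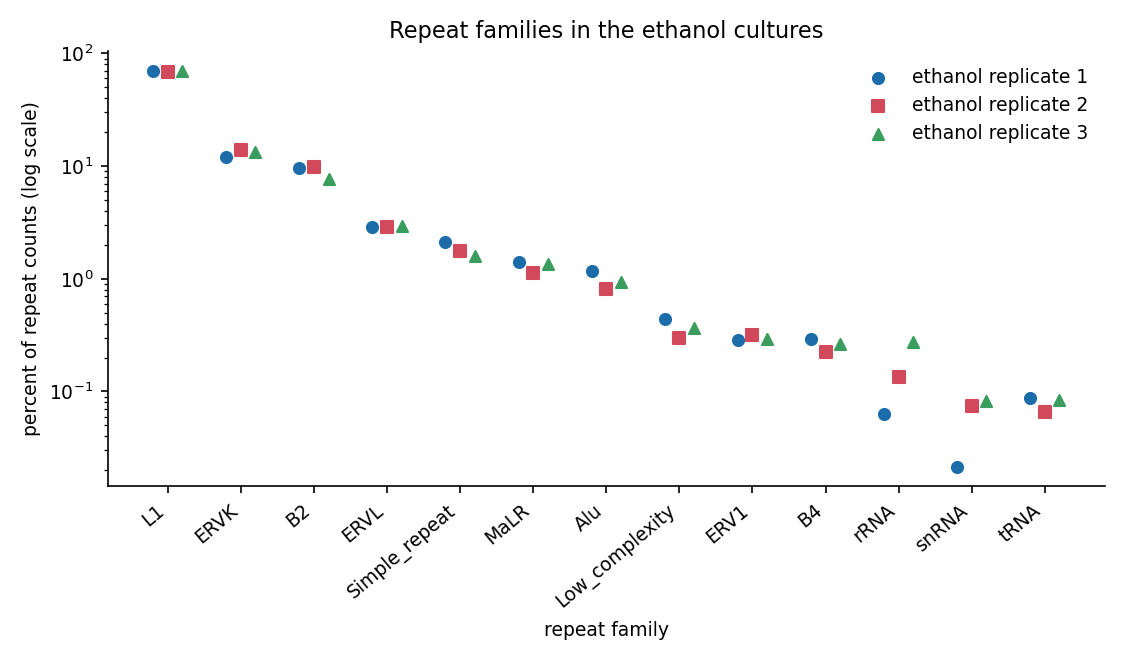
Percent of repeat counts (log axis) of the 10 most abundant repeat families and of rRNA, snRNA and tRNA in the 3 ethanol libraries, 1 symbol per library. L1, ERVK and B2 lead in each library, and of the families drawn rRNA and snRNA spread widest.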

How the data were processed

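RNA of cultured mouse SSCs was sequenced on a NovaSeq instrument, and the authors deposited whole-number counts per gene symbol and per repeat family for 3 ethanol and 3 EPZ5676 libraries. The submitters' processing notes name the tools STAR, Bowtie, featureCounts and edgeR and the genome build mm9. Which annotation was counted, whether strand was used, and how reads that align at many places were handled is not given in the sources used here. Reads from a gene and an overlapping antisense gene may therefore not be separated.

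Only the ethanol columns entered these results, grouped by label, with no comparison between treatments and no test. The members, gene lists and rules were chosen with earlier results of these data known. Counts were divided by the column total to give CPM, a gene was detected at 1 CPM or more in each library, and means carry the SD over 3 libraries. Every row of the gene table names a symbol, and 3 repeat rows that name no family, with 0.171% to 0.228% of repeat counts, were left out. Gene counts ran from 17784332 to 21046473, so 1 count was 0.0475 to 0.0562 CPM. Pairs of libraries had a chi-square per degree of freedom of 3.64 to 24.1 over genes, so none was a copy of another.

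Exon lengths (union of exons, for 24112 symbols) and shared 50-base words came from GENCODE release M21 on GRCm38, which is not the build of the counts and served for lengths, words and names only. Promoters came from the RefSeq table on GRCm38.p6. No promoter median is given for a set with under 80% of its members in that table, apart from symbols counted but not detected and those detected under 10 CPM. Alternatives used TMM factors (edgeR 4.0.16) and size factors (DESeq2 1.42.0) in R 4.3.3, other filters and each library left out. The steps ran in Python 3.11.15 with pandas 2.3.3 and numpy 2.4.6 and were tested on simulated data.

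Named genes were the 7 markers, the 20 genes highest in CPM, any member of lists of up to 12 and otherwise the 6 highest and 3 lowest, the 3 highest of each family, the 12 most uneven genes (mean of 20 CPM or more), and the 10 largest repeat families. Other genes named, such as Id4, Neurog3, Pax7, Sycp3, Prm1, Tnp1, Nanog, Rn45s, rRNA and snRNA, were chosen after their values were seen. Some genes within this rule are not reported here.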

Additional observations from a re-analysis of the deposited data

How the results depend on the processing

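Of 263 recomputed values other than levels with a library left out, 7 moved past the limits set and the rest stayed. The limits were 1.5 times for counts and 1 SD between libraries for levels. For 114 levels with 1 library left out that limit cannot be passed by construction, so they are judged by their ratio to the value over 3 libraries. None of the 114 changed by over 1.5 times, and the largest ratio was 1.37, for the peritubular and smooth muscle sum without ethanol replicate 2. All 138 values recomputed under TMM or size factors stayed within the limits. The TMM factors were 1.002, 1.005 and 0.994 and size factors gave library sizes close to the totals, so this rescaling could move values little. Ranking genes by CPM per kilobase of exon, chosen after seeing the data, put 7.72% of counts in the first 100 genes, against 11.1% by CPM. Repeat families taken as a percent of gene counts gave 207% for L1, 39.5% for ERVK and 27.3% for B2, because repeat counts exceed gene counts. With all 300 bases of the promoter table, 50 of them after the start, the median of symbols without a count was 2 CG against 1. Macrophage genes detected were 4 without ethanol replicate 1, against 2, and HoxA genes 1 without ethanol replicate 3, against 0. A planned ranking by coding length was not run, since no protein table was used here. No paired analysis was possible because the ethanol libraries are 1 group and no result comes from a test. Depth limits genes near 1 CPM, which rest on about 20 counts in a library.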

Other observations

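Glycolysis genes were detected for 16 of 17 listed, with a sum of 3259 ± 170 CPM. Pkm, pyruvate kinase, measured 1069.8, 1012 and 1009.9 CPM, and Aldoa (526 ± 65.3 CPM) and Gpi1 (475 ± 16.1 CPM) followed. Gapdh, a common reference gene, was counted at 3.22, 6.07 and 4.56 CPM, Eno1 at 2, 1 and 2 counts and Pgk1 at 5.11, 7.37 and 4.799 CPM. These genes share 24.7%, 26.0% and 53.9% of their 50-base words with other annotated transcripts. Eno1b, a near copy of Eno1, measured 49.9 ± 4.41 CPM.

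Ribosomal protein genes were as uneven. Of 83 symbols 80 were detected, and their mean CPM ran from 0.207 for Rpl26 to 2873 for Rpl4, with 20 under 10 CPM and 34 at 100 CPM or more. Rps27 stood at 0.461 and Rpl30 at 0.802 CPM. The share of symbols detected was 53.5% where no word was shared, 65.8% where up to 10% were, 38.8% from 10 to 50%, 25.3% from 50 to 90% and 7.496% above 90%. How reads with several alignments were counted is not given in the sources used here, so low values of such genes are values of this table only, and whether they are low in the cells was not tested.

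Genes of the Y chromosome and Xist, the RNA of the inactive X chromosome, were both counted. Eif2s3y measured 101, 99.4 and 96.3 CPM, Ddx3y 51.5 CPM and Usp9y 94.6 CPM, and Xist 16.1, 22.6 and 18.3 CPM, highest in replicate 2. Sry had no count.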
